A study of Homo sapiens with 12 samples.

Results

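The control populations of 2 prostate cancer cell lines, CWR22Rv1 and DU145, were compared with each other: 3 libraries of CWR22Rv1 cells carrying a control short hairpin RNA (shControl) and 3 libraries of DU145 cells carrying a control open reading frame vector (OEControl). These 6 of the series' 12 libraries were taken by their labels. The study knocked GALNT7 down in CWR22Rv1 (GALNT7 KD) and overexpressed it in DU145 (GALNT7 OE), each in 3 libraries, to ask what this O-glycosylation enzyme does in prostate cancer cells. All 4 populations were stable cell lines made by lentiviral transduction, and polyadenylated RNA was sequenced with its strand kept. CWR22Rv1 was grown out of a human prostate cancer xenograft that had relapsed after castration of its host, and DU145 out of a brain metastasis of prostate cancer. The control vector differed between the lines, and each line came from its own table with its own normalisation. Line, vector and batch therefore cannot be told apart, and what follows describes how these control populations differed at baseline, not what any one of these causes.

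Androgens are the steroid hormones on which the prostate depends. In its epithelium, and with lineage factors such as FOXA1 and HOXB13, they keep luminal cells producing secreted kallikreins, among them prostate-specific antigen, and most prostate cancers need them for growth. CWR22Rv1 is used as a line that responds to androgens and DU145 as one that does not.

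The levels below are read counts per gene that were recovered from the deposited values and rescaled to a common library size over the 6 libraries, by the trimmed mean of M values (TMM). Differences are log2(count + 1) in CWR22Rv1 minus DU145, with the standard error (SE) of a limma fit over n=3 libraries a line and a Benjamini-Hochberg adjusted p over all 17804 genes with a mean count of at least 10. A gene passed at an adjusted p under 0.05, and a call was 4-fold where the log2 difference was also at least 2 in size. A log2 difference on this scale understates the change of a gene with few reads, and where a line had 0 reads it depends on the added count of 1, so a lower bound on the fold is given against a floor of 3 reads over the group. Intervals on ratios of reads cover counting error only. The labels call the libraries biological replicates without saying how the cultures were set apart, so p-values measure only the spread between these libraries.

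The depth was similar, 21141983 to 22264533 reads in shControl and 21628718 to 23288926 in OEControl. Pearson's r of log2 counts was 0.974 to 0.976 within a line and 0.632 to 0.638 between lines. By read counts shControl replicate 2 lay farther from the other two, at a mean chi-square per gene of 25.3 and 26.0, beside 9.90 between those and 9.44 to 11.1 within OEControl. Without it 6607 genes were higher in CWR22Rv1 and 6979 higher in DU145, beside the 6931 and 7006 given below. The marker check fitted the labels. KLK3, which encodes prostate-specific antigen, had 465, 374 and 459 in CWR22Rv1 and 0, 0 and 0 in DU145. The luminal keratin gene KRT8 had 11757, 11964 and 11801 in CWR22Rv1 and 13333, 12269 and 13372 in DU145, and EPCAM, a surface protein of epithelial cells, 459, 486 and 452 in CWR22Rv1 and 377, 388 and 352 in DU145. Of 16 markers of leukocytes, endothelial cells and fibroblasts, 6 reached the count filter. Of these, 2 were of leukocytes, both higher in DU145, and 4 of fibroblasts, 2 higher in CWR22Rv1 and 1 higher in DU145. The leukocyte marker PTPRC and the endothelial marker PECAM1 had at most 2 and 5 reads in any library, while CD68, which is not confined to macrophages, had 130, 113 and 130 in CWR22Rv1 and 2752, 2691 and 2590 in DU145, and the fibroblast product LUM 258, 272 and 216 in CWR22Rv1 and 0, 0 and 0 in DU145. GALNT7, on the rescaling of all 12 libraries, had 937, 1129 and 1183 in shControl, 526, 547 and 441 in GALNT7 KD, 1017, 902 and 883 in OEControl and 1943, 2185 and 2270 in GALNT7 OE. The KD libraries lay below their controls and the OE libraries above theirs. Between the control lines GALNT7 overlapped and did not pass (log2 difference 0.19, SE 0.11, limma adjusted p=0.15), and an exact permutation test gave a two-sided p=0.2, where 3 libraries against 3 cannot go below 0.1. Without shControl replicate 1 the log2 difference was 0.29 and passed in limma.

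The lines differed at most genes. Of the 17804 genes tested, 13937 (78.3%) passed, 6931 (38.9%) higher in CWR22Rv1 and 7006 (39.4%) higher in DU145. At 4-fold, 4966 genes (27.9%) passed, 1934 (10.9%) higher in CWR22Rv1 and 3032 (17.0%) higher in DU145. The median log2 difference over all genes was 0.00. With so many genes passing, the counts of each gene group below are read beside these shares, and groups with members under 10 reads in 1 line had to differ at those members to be tested at all.

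Androgen-regulated genes were mostly higher in CWR22Rv1. Of 33 such genes taken from textbook knowledge, 32 were tested, and 24 were higher in CWR22Rv1, 18 of them at 4-fold. The other calls were 5 genes higher in DU145, 3 of them at 4-fold. The median log2 difference of the list was 2.24. Among the 22 with a mean of at least 10 reads in both lines, 14 were higher in CWR22Rv1 and 5 higher in DU145, with a median of 1.20 beside 0.06 for all 14761 such genes. TRPM8, a cation channel, was the 1 gene of the list below the filter, with 7, 1 and 12 in CWR22Rv1 and 1, 0 and 2 in DU145. Because bulk RNA was measured, fewer cells with a message and less of it per cell cannot be told apart.

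The secreted kallikreins, serine proteases of the seminal fluid, gave the widest gap. KLK3 (ENSG00000142515, chr19:50854915-50860764 on GRCh38, plus strand) was at least 435-fold higher in CWR22Rv1. KLK2, its neighbour, had 1090, 998 and 1089 in CWR22Rv1 and 0, 0 and 1 in DU145, a ratio of 3190-fold, with an exact Poisson 95% interval of 573 to 125995. KLK4, which matures enamel proteins and is strongly expressed in prostate, had 10769, 10252 and 10713 in CWR22Rv1 and 12, 0 and 0 in DU145 (log2 difference 12.12, SE 1.01, limma adjusted p=5.6e-05). All 3 were near 0 in DU145, where the reads of KLK4 came from OEControl replicate 1. KLK15, an activator of prostate-specific antigen, also differed, with 29, 64 and 36 in CWR22Rv1 and 7, 4 and 1 in DU145 (log2 difference 3.29, SE 0.57, limma adjusted p=0.0019).

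Since KLK3 and KLK2 lie side by side and were both read in CWR22Rv1 and near 0 in DU145, the 250 bases before each start are shown, in RefSeq's sequence for GRCh38.p14. Both are on the plus strand, KLK3 at chr19:50854665-50854914 and KLK2 at chr19:50873189-50873438, read 5′ to 3′ with the half-site of the androgen response element in capitals.
KLK3: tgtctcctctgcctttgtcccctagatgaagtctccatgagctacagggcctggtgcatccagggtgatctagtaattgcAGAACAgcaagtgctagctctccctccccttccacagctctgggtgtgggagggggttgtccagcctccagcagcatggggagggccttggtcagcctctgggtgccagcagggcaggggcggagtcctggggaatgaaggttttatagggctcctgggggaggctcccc
KLK2: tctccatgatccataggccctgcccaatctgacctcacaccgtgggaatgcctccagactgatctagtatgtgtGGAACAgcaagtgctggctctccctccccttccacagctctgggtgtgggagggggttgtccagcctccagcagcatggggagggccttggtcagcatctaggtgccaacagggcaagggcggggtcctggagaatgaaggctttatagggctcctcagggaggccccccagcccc
The half-site was searched as AGAACA with its reverse complement TGTTCT, and also with G as its first letter in place of A, as GGAACA with its reverse complement TGTTCC. The search found 1 match in each promoter, at -170 to -165 in KLK3 and -176 to -171 in KLK2, counted from the start. The promoters also shared an unbroken run of 80 bases, from -154 to -75 in KLK3 and -160 to -81 in KLK2. A match is common: 6063 of 27305 promoters in the table (22.2%) held one, and so did 4 of 23 promoters of the listed genes (17.4%). The match is thus a description of these windows and does not set these genes apart.

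The other strongly separated genes of the list covered secretion, metabolism and transcription. TMPRSS2, the surface protease whose promoter is often fused to ERG in prostate cancer, had 318, 235 and 311 in CWR22Rv1 and 5, 1 and 1 in DU145 (log2 difference 6.65, SE 0.45, limma adjusted p=2.2e-05). AZGP1, a secreted zinc-binding glycoprotein, had 3158, 3161 and 3243 in CWR22Rv1 and 8, 3 and 2 in DU145 (log2 difference 9.40, SE 0.38, limma adjusted p=2.1e-06). HPGD, which inactivates prostaglandins, had 572, 637 and 483 in CWR22Rv1 and 0, 0 and 1 in DU145, a ratio of 1698-fold, with an exact Poisson 95% interval of 305 to 67086. In all of these the lines were separated by far more than the spread between libraries. MAF, a transcription factor, had 607, 566 and 590 in CWR22Rv1 and 0 reads in DU145, at least 590-fold, and ADAM7, a membrane protein of the epididymis and prostate, was at least 223-fold higher.

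A further group was read in both lines and higher in CWR22Rv1. FKBP5, a co-chaperone of steroid receptors, had 14567, 14944 and 14305 in CWR22Rv1 and 3184, 3274 and 3251 in DU145 (log2 difference 2.17, SE 0.03, limma adjusted p=7.5e-08). PMEPA1, a brake on TGF-β signalling, had 12480, 11333 and 11837 in CWR22Rv1 and 1351, 1333 and 1372 in DU145 (log2 difference 3.13, SE 0.04, limma adjusted p=7.7e-08). Both were thus far from silent in DU145. The log2 differences of ELL2, an elongation factor, and ACSL3, which activates fatty acids, were 2.32 and 1.06, and those of PLPP1, a lipid phosphatase, and CAMKK2, a kinase upstream of AMPK, were 2.99 and 0.56.

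The 5 genes higher in DU145 went against the rest of the list. NDRG1, a gene of stress and differentiation, had 2439, 2344 and 2538 in CWR22Rv1 and 9943, 10176 and 9753 in DU145 (log2 difference -2.03, SE 0.04, limma adjusted p=1.6e-07). ABCC4, an exporter of cyclic nucleotides and prostaglandins, had 348, 347 and 301 in CWR22Rv1 and 2493, 2490 and 2479 in DU145 (log2 difference -2.90, SE 0.07, limma adjusted p=3.5e-07). The metalloreductase gene STEAP4 had 24, 27 and 37 in CWR22Rv1 and 215, 185 and 187 in DU145 (log2 difference -2.71, SE 0.20, limma adjusted p=3.3e-05). ERRFI1, a feedback inhibitor of the EGF receptor, and C1orf116 had log2 differences of -1.64 and -0.62. SORD and MED28 did not pass, at log2 differences of 0.19 and -0.01.

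**Figure D1:**
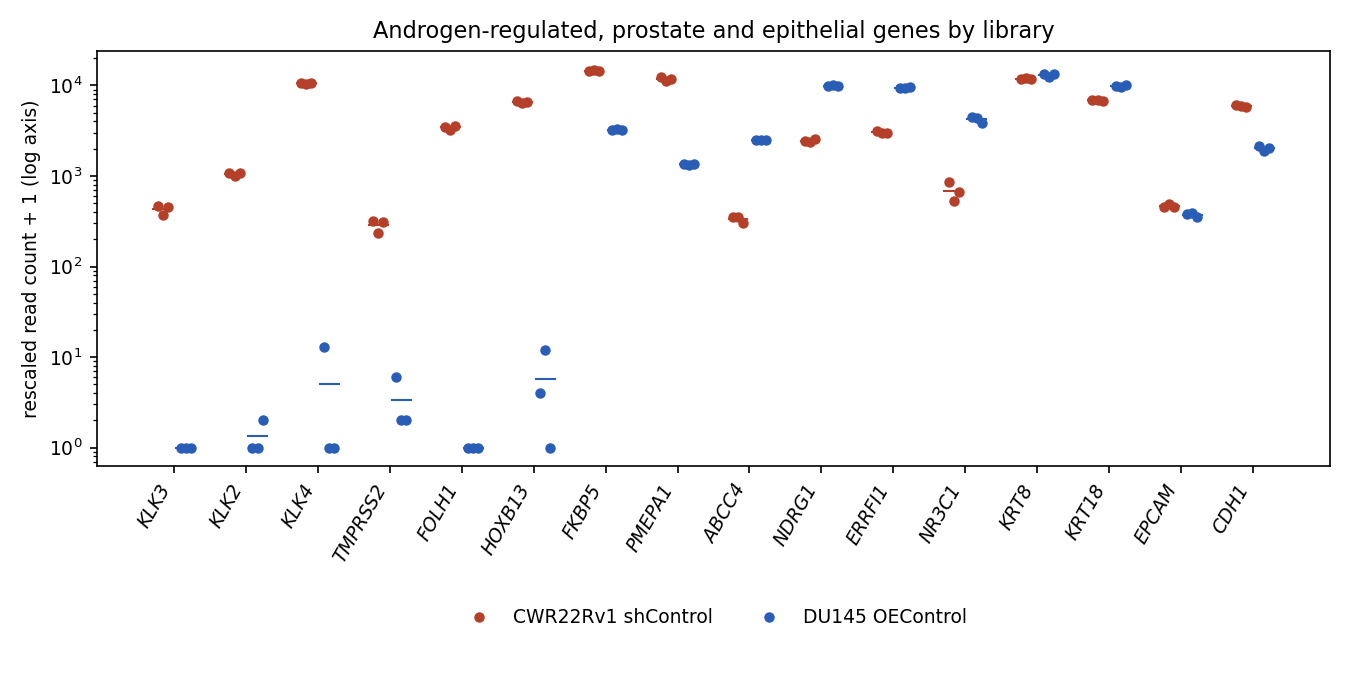
Rescaled read count + 1 per library (log axis) for androgen-regulated genes, FOLH1, HOXB13, NR3C1 and epithelial markers, with 3 CWR22Rv1 shControl libraries (red) and 3 DU145 OEControl libraries (blue) per gene and a bar at each mean. KLK3, KLK2, KLK4, TMPRSS2, FOLH1 and HOXB13 sit at 12 reads or fewer in DU145, FKBP5 and PMEPA1 are read in both lines, and NDRG1, ABCC4 and NR3C1 are higher in DU145.

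The prostate lineage factors were mostly higher in CWR22Rv1 too. Of 11 pioneer and lineage factors, 8 were 4-fold higher in CWR22Rv1 and 1 was 4-fold higher in DU145. HOXB13, a homeobox factor of the prostate, had 6693, 6460 and 6624 in CWR22Rv1 and 3, 11 and 0 in DU145 (log2 difference 10.83, SE 0.85, limma adjusted p=4.2e-05). GRHL2, a regulator of epithelial junction genes, had 5450, 5286 and 5813 in CWR22Rv1 and 9, 1 and 4 in DU145 (log2 difference 10.22, SE 0.54, limma adjusted p=6.4e-06). FOXA1, a pioneer factor that opens chromatin, was read in both lines, with 6967, 6291 and 6771 in CWR22Rv1 and 1737, 1475 and 1754 in DU145 (log2 difference 2.01, SE 0.08, limma adjusted p=2.0e-06). SPDEF, ONECUT2, GATA2 and SOX9 had log2 differences of 4.86, 5.37, 3.43 and 2.43. ELF3, an epithelial ETS factor, was the exception, with 611, 609 and 593 in CWR22Rv1 and 3783, 3713 and 3988 in DU145 (log2 difference -2.66, SE 0.05, limma adjusted p=1.2e-07), and GRHL1 and KLF5 did not pass.

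The 10 coactivators and corepressors of nuclear receptors differed little by comparison, and none passed at 4-fold. TLE3 and NCOR1, both corepressors, were higher in CWR22Rv1, at 1.83 and 1.31. NCOA3 and NCOA4, both coactivators, were higher in DU145, at -1.06 and -0.63. The acetyltransferase genes EP300 and CREBBP overlapped between the lines and did not pass, at 0.41 and -0.13, although EP300 passed at 0.60 without shControl replicate 1 and CREBBP at -0.25 without OEControl replicate 2.

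The surface and secreted products of prostate epithelium gave a mixed picture. Of 20 listed, 13 were tested, 9 of them higher in CWR22Rv1 and 3 higher in DU145. FOLH1, which encodes prostate-specific membrane antigen, had 3516, 3247 and 3565 in CWR22Rv1 and 0 reads in DU145, at least 3457-fold. STEAP1, STEAP2 and the prostatic acid phosphatase gene ACPP were higher in CWR22Rv1, at log2 differences of 2.54, 2.14 and 3.01. PDZK1IP1, a small membrane protein, went the other way, with 2, 1 and 2 in CWR22Rv1 and 439, 471 and 436 in DU145 (log2 difference -7.41, SE 0.23, limma adjusted p=7.8e-07). The prostate stem cell antigen gene PSCA was also higher in DU145, with 9, 7 and 20 in CWR22Rv1 and 100, 102 and 114 in DU145 (log2 difference -3.15, SE 0.38, limma adjusted p=3.4e-04), as was AMACR at -0.63. MSMB, a major protein of seminal plasma, had 0 reads in all 6 libraries, so neither line held the full set of secretory products.

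Nuclear receptors lay on both sides. Of 24 listed, 18 were tested, and 6 were higher in CWR22Rv1 and 10 higher in DU145, with a median of -1.09. Without any one of the shControl libraries this median lay between -1.64 and -1.53. NR3C1, the glucocorticoid receptor gene, had 858, 535 and 660 in CWR22Rv1 and 4489, 4419 and 3861 in DU145 (log2 difference -2.66, SE 0.17, limma adjusted p=1.7e-05), or 74.6 against 464 rescaled reads per kb of exon. NR3C2, the mineralocorticoid receptor gene, went the other way with 544, 908 and 685 in CWR22Rv1 and 28, 15 and 20 in DU145 (log2 difference 5.02, SE 0.28, limma adjusted p=8.0e-06). PGR, ESR1 and ESR2, the receptors of progesterone and oestrogens, were below the filter, with at most 22, 12 and 6 reads in any library.

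The COUP transcription factors NR2F1 and NR2F2 were split between the lines. NR2F1 had 3146, 2671 and 3286 in CWR22Rv1 and 28, 27 and 48 in DU145 (log2 difference 6.49, SE 0.24, limma adjusted p=1.4e-06), while NR2F2 had 227, 91 and 155 in CWR22Rv1 and 2191, 2249 and 2250 in DU145 (log2 difference -3.91, SE 0.31, limma adjusted p=4.6e-05). Per kb of exon NR2F1 reached 703 reads in CWR22Rv1, beside 7.86 in DU145. The retinoic acid receptors were split as well: RARB had 221, 259 and 230 in CWR22Rv1 and 1, 0 and 1 in DU145, a ratio of 356-fold, with an exact Poisson 95% interval of 98.6 to 2941, and RARA had 249, 311 and 242 in CWR22Rv1 and 1006, 1019 and 1073 in DU145 (log2 difference -1.95, SE 0.11, limma adjusted p=9.4e-06). Of the fatty acid receptors, PPARD (log2 difference -3.20, SE 0.06, limma adjusted p=1.2e-07) and PPARG (log2 difference -5.48, SE 0.20, limma adjusted p=1.4e-06) were higher in DU145, and PPARD had the highest level per kb of these receptors there, at 1056 reads. PPARA and VDR, the vitamin D receptor gene, did not pass, at -0.19 and 0.19, and VDR passed at 0.27 without OEControl replicate 1.

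**Figure D2:**
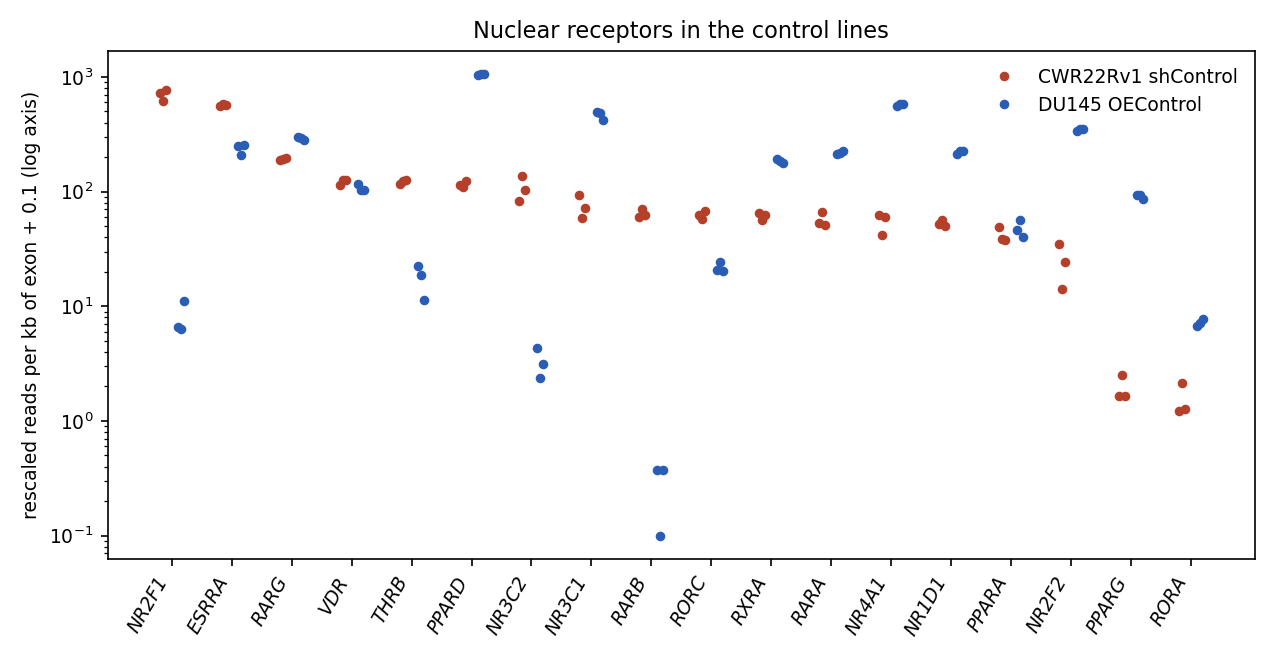
Rescaled reads per kb of exon + 0.1 (log axis) for the 18 nuclear receptors of the list that were tested, ordered by their level in CWR22Rv1, with one point per library (red, CWR22Rv1 shControl; blue, DU145 OEControl). Of those shown, NR2F1 is the highest in CWR22Rv1 at 703 reads per kb and PPARD in DU145 at 1056.

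Of 35 enzymes that make and break steroids, 14 were tested, 5 higher in CWR22Rv1 and 7 higher in DU145. SRD5A1 and SRD5A3, members of the family that reduces testosterone to dihydrotestosterone, lay in opposite directions, at -1.91 and 0.98, and SRD5A2 had at most 2 reads. AKR1C3, which makes testosterone from androstenedione, had 2, 2 and 3 in CWR22Rv1 and 697, 729 and 704 in DU145 (log2 difference -7.74, SE 0.18, limma adjusted p=3.1e-07), and its neighbours AKR1C1 and AKR1C2 were also higher in DU145, at -7.05 and -5.97. These 3 are close paralogs that can share reads, which makes their separate levels uncertain. HSD11B2, which inactivates cortisol, was higher in CWR22Rv1, with 691, 522 and 615 in CWR22Rv1 and 52, 39 and 51 in DU145 (log2 difference 3.66, SE 0.17, limma adjusted p=3.8e-06). None of the 5 listed enzymes of steroid synthesis passed the filter: CYP17A1 had at most 2 reads in any library.

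Keratins of simple epithelium were read in both lines. Of 18 keratin genes, 8 were tested, 2 higher in CWR22Rv1 and 6 higher in DU145. In CWR22Rv1, 3 of these had a mean under 10 reads and could pass the filter only through DU145. The 5 read in both lines gave 2 higher in CWR22Rv1 and 3 higher in DU145, with a median of -0.13. KRT18 and KRT19, partners of KRT8, differed by less than 1 on the log2 scale, at -0.53 and 0.47, and KRT8 was at -0.13 (limma adjusted p=0.02), a call that was lost without shControl replicate 1 or 3 or OEControl replicate 1 or 3, at -0.13 to -0.11. KRT7, a keratin of many ducts, had 90, 21 and 55 in CWR22Rv1 and 38370, 38665 and 38495 in DU145 (log2 difference -9.65, SE 0.50, limma adjusted p=5.9e-06), and KRT80 had 4, 7 and 8 in CWR22Rv1 and 4362, 4458 and 4395 in DU145 (log2 difference -9.27, SE 0.22, limma adjusted p=3.1e-07). Of 12 keratins of basal and stratified epithelia 4 were tested, 1 higher in CWR22Rv1 and 3 higher in DU145, all at 4-fold, while the basal keratin genes KRT5, KRT6A and KRT14 had at most 7 reads.

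Cell junction genes were split, 16 higher in CWR22Rv1 and 14 higher in DU145 of 32 tested. CDH1, which encodes E-cadherin, had 6055, 5858 and 5742 in CWR22Rv1 and 2121, 1878 and 2055 in DU145 (log2 difference 1.55, SE 0.05, limma adjusted p=1.3e-06). ESRP1, a splicing regulator of epithelial cells, had 4321, 4340 and 4591 in CWR22Rv1 and 14, 17 and 16 in DU145 (log2 difference 8.03, SE 0.10, limma adjusted p=5.7e-08), and OVOL1, a repressor of mesenchymal genes, 162, 146 and 140 in CWR22Rv1 and 2, 1 and 1 in DU145 (log2 difference 6.04, SE 0.23, limma adjusted p=1.8e-06). Of the 7 regulators tested, 6 were higher in CWR22Rv1, but 8 of 13 tight junction genes were higher in DU145. CLDN7 and CLDN1 showed this split, with 2860, 2880 and 2944 in CWR22Rv1 and 124, 129 and 136 in DU145 and 20, 21 and 17 in CWR22Rv1 and 2787, 2780 and 2783 in DU145 respectively. MARVELD2 did not pass in the main fit, and its OEControl libraries were far apart: replicate 2 had 0 reads where the others had 137 and 149. It passed when any single OEControl library was left out, at 2.63 without replicate 2. Without replicate 1 it was at 6.18 and without replicate 3 at 6.24. It also passed with edgeR, at 3.22.

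Genes of basal cells and of adhesion to matrix were mostly higher in DU145. Of 35 tested, 29 were higher there and 25 at 4-fold, with 6 higher in CWR22Rv1 and a median of -4.11. The 32 members read in both lines gave 27 and 5, so genes read in both lines leaned the same way. ITGB1, the integrin subunit shared by most collagen and laminin receptors, had 7863, 8066 and 7723 in CWR22Rv1 and 110151, 107866 and 106495 in DU145 (log2 difference -3.78, SE 0.03, limma adjusted p=1.7e-08), and its partner ITGA3 197, 183 and 321 in CWR22Rv1 and 30328, 30851 and 29311 in DU145 (log2 difference -7.05, SE 0.21, limma adjusted p=6.6e-07). LAMB3, a chain of the laminin that anchors epithelia, had 60, 40 and 26 in CWR22Rv1 and 10113, 10261 and 9419 in DU145 (log2 difference -7.93, SE 0.28, limma adjusted p=1.3e-06). CAV1, the coat protein of caveolae, and ANXA2 were at -8.04 and -6.25. GSTP1, a detoxifying enzyme of basal cells that most prostate cancers do not express, had 2, 1 and 0 in CWR22Rv1 and 1111, 977 and 1005 in DU145, a ratio of 1025-fold, with an exact Poisson 95% interval of 351 to 4971. BCL2, the survival gene, went the other way with 440, 458 and 469 in CWR22Rv1 and 10, 9 and 9 in DU145 (log2 difference 5.47, SE 0.13, limma adjusted p=3.1e-07).

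Mesenchymal genes were read in DU145 beside its keratins. Of 36 tested, 24 were higher in DU145, 22 at 4-fold, and 8 higher in CWR22Rv1, with a median of -3.37. A mean under 10 reads was found for 7 members in CWR22Rv1 and 3 in DU145. These could pass the filter only through the other line. The 26 read in both lines gave 17 higher in DU145 and 5 higher in CWR22Rv1, with a median of -2.46. VIM, the intermediate filament of mesenchymal cells, had 78, 96 and 109 in CWR22Rv1 and 16320, 16453 and 16283 in DU145 (log2 difference -7.43, SE 0.12, limma adjusted p=1.0e-07), and ZEB1, a repressor of E-cadherin, 3, 0 and 1 in CWR22Rv1 and 692, 664 and 684 in DU145 (log2 difference -8.40, SE 0.50, limma adjusted p=1.1e-05). AXL, a receptor tyrosine kinase, had the lowest fitted difference of all genes tested, with 1, 0 and 7 in CWR22Rv1 and 16753, 16660 and 16881 in DU145 (log2 difference -12.69, SE 0.72, limma adjusted p=9.2e-06). The factors were not all on one side. SNAI2 was higher in CWR22Rv1, with 1517, 1516 and 1403 in CWR22Rv1 and 53, 55 and 52 in DU145 (log2 difference 4.77, SE 0.08, limma adjusted p=1.2e-07), TWIST1 had reads in CWR22Rv1 and none in DU145 (at least 460-fold), and TWIST2 the reverse (at least 223-fold). FN1, the matrix protein fibronectin, was also higher in CWR22Rv1, at 2.69, whereas the YAP targets CYR61 and CTGF were higher in DU145, at -6.48 and -5.57. Of 16 proteases and inhibitors tested, 4 were higher in CWR22Rv1 and 9 higher in DU145. PLAU, the urokinase that activates plasminogen, had 10, 4 and 12 in CWR22Rv1 and 23998, 23983 and 24755 in DU145 (log2 difference -11.40, SE 0.36, limma adjusted p=8.5e-07), and MMP14, a membrane collagenase, 171, 82 and 84 in CWR22Rv1 and 5499, 4592 and 5070 in DU145 (log2 difference -5.56, SE 0.29, limma adjusted p=6.4e-06).

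Growth factor ligands lay almost wholly with DU145, while their receptors did not. Of 17 ligands tested, 16 were higher in DU145 and 1 higher in CWR22Rv1. Of the 36 ligands and receptors tested, 10 had a mean under 10 reads in CWR22Rv1 and 3 in DU145. These could pass the filter only through the other line. The 23 read in both lines gave 14 higher in DU145 and 6 higher in CWR22Rv1, with a median of -1.17 in place of -2.46. AREG and EREG, ligands of the EGF receptor, had 2, 1 and 3 in CWR22Rv1 and 2095, 2038 and 2084 in DU145 (log2 difference -9.48, SE 0.27, limma adjusted p=5.8e-07) and 1, 1 and 5 in CWR22Rv1 and 3223, 3244 and 3004 in DU145 (log2 difference -10.09, SE 0.45, limma adjusted p=3.1e-06). FGF2 and VEGFA had log2 differences of -7.32 and -3.54. IGF1 was the exception, with 90, 38 and 88 in CWR22Rv1 and 0, 0 and 2 in DU145. Of 19 receptors, 7 were higher in CWR22Rv1 and 8 in DU145. EGFR itself was higher in CWR22Rv1, with 22300, 28455 and 22328 in CWR22Rv1 and 13007, 12759 and 13098 in DU145 (log2 difference 0.90, SE 0.10, limma adjusted p=1.9e-04), and MET, the HGF receptor gene, higher in DU145 with 72, 125 and 62 in CWR22Rv1 and 4121, 4088 and 3996 in DU145 (log2 difference -5.60, SE 0.25, limma adjusted p=3.2e-06).

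The inflammatory genes had the lowest median of the lists over all members tested, though not over members read in both lines. The inflammatory and NF-κB list held 48 genes: 19 cytokines and chemokines, 12 acute phase and complement genes and 17 regulators. Of these, 40 were tested, 39 were higher in DU145 and 33 of these at 4-fold, with a median of -5.55. By group, in the same order, the medians were -7.19, -8.44 and -2.39. Only IL6R, the interleukin-6 receptor gene, was higher in CWR22Rv1, at 1.17. Since 20 members had a mean under 10 reads in CWR22Rv1, they could pass the filter only through DU145; the 20 read in both lines gave 19 higher in DU145 and a median of -2.86. CXCL1, a neutrophil chemokine, had 0 reads in CWR22Rv1 and 1671, 1622 and 1628 in DU145, at least 1631-fold. IL6 had 1, 0 and 1 in CWR22Rv1 and 3482, 3407 and 3433 in DU145, a ratio of 5132-fold, with an exact Poisson 95% interval of 1421 to 42378. CXCL8, which encodes interleukin-8, had 1, 6 and 2 in CWR22Rv1 and 4186, 4331 and 4214 in DU145 (log2 difference -10.25, SE 0.43, limma adjusted p=2.5e-06), and the complement gene C3 3, 1 and 6 in CWR22Rv1 and 19086, 18841 and 18561 in DU145 (log2 difference -12.26, SE 0.44, limma adjusted p=1.3e-06). ICAM1, an adhesion molecule for leukocytes, had 101, 84 and 95 in CWR22Rv1 and 18376, 17753 and 17750 in DU145 (log2 difference -7.58, SE 0.08, limma adjusted p=2.8e-08). SOD2, the mitochondrial superoxide dismutase, had 3398, 3479 and 3462 in CWR22Rv1 and 42084, 41392 and 41110 in DU145 (log2 difference -3.59, SE 0.02, limma adjusted p=1.7e-08). OSMR, the receptor of oncostatin M, had 67, 63 and 94 in CWR22Rv1 and 35652, 35235 and 35614 in DU145 (log2 difference -8.89, SE 0.15, limma adjusted p=1.1e-07), and at none of these genes did the lines overlap. The NF-κB subunits themselves differed less: NFKB1, NFKB2 and RELA were at -1.39, -1.51 and -1.01, and RELB at -4.09.

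Interferon-stimulated and antigen presentation genes leaned the same way. Of 40 tested, 33 were higher in DU145 and 6 higher in CWR22Rv1, with a median of -3.55. A mean under 10 reads was found for 16 members in CWR22Rv1 and 4 in DU145. These could pass the filter only through the other line. The 20 read in both lines gave 17 higher in DU145 and 3 higher in CWR22Rv1, with a median of -2.40. IFIT2 had 2, 2 and 3 in CWR22Rv1 and 905, 890 and 851 in DU145 (log2 difference -8.06, SE 0.18, limma adjusted p=2.5e-07), and OASL, another antiviral gene, 5, 2 and 1 in CWR22Rv1 and 899, 832 and 893 in DU145 (log2 difference -8.04, SE 0.41, limma adjusted p=5.6e-06). B2M, the light chain of class I molecules, had 5176, 5144 and 4862 in CWR22Rv1 and 24944, 24172 and 24045 in DU145 (log2 difference -2.27, SE 0.03, limma adjusted p=9.3e-08). RSAD2, the antiviral enzyme viperin, went the other way, with 63, 80 and 49 in CWR22Rv1 and 0, 0 and 2 in DU145, a ratio of 96.6-fold, with an exact Poisson 95% interval of 26.7 to 798, as did ISG15 and PSMB10, at 1.07 and 1.74. HLA-C had 275, 321 and 310 in CWR22Rv1 and 0, 1 and 1 in DU145, but it lies in the major histocompatibility region, where the tables also hold identifiers of alternative haplotypes, so that the count under 1 identifier need not be the gene's total and this level is uncertain. In all, 712 of the tested identifiers are outside the primary annotation. Leaving out the members in that region, 30 of 34 were higher in DU145 and 4 higher in CWR22Rv1.

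Genes of the oxidative stress factor NRF2 were higher in DU145 in 16 of 20 tested cases, with a median of -2.17. NQO1, a quinone reductase, had 678, 707 and 665 in CWR22Rv1 and 17407, 17509 and 17300 in DU145 (log2 difference -4.67, SE 0.04, limma adjusted p=1.7e-08). TXNRD1, thioredoxin reductase, had 6758, 6373 and 6365 in CWR22Rv1 and 76415, 79576 and 76315 in DU145 (log2 difference -3.57, SE 0.03, limma adjusted p=2.5e-08). NFE2L2, which encodes NRF2, and its inhibitor KEAP1 differed less, at -1.36 and 0.21, and KEAP1 no longer passed without shControl replicate 1 or 2 or OEControl replicate 1 or 3, at 0.17 to 0.22. SLC7A11 and PGD did not pass. ALDH1A1 had reads in CWR22Rv1 and none in DU145, at least 28.9-fold.

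The enzymes of GALNT7's own family add the first sugar of mucin-type O-glycans. Of 20 GALNT genes, 13 were tested, 3 were higher in CWR22Rv1 and 7 higher in DU145, with a median of -0.59. At 4-fold 1 was higher in CWR22Rv1 and 6 higher in DU145, beside shares of 10.9% and 17.0% for all genes. GALNT14 had 1, 0 and 0 in CWR22Rv1 and 1138, 1140 and 1093 in DU145, a ratio of 3352-fold, with an exact Poisson 95% interval of 602 to 132402. GALNT12, GALNT6 and GALNT2 were also higher in DU145, with 6, 32 and 7 in CWR22Rv1 and 511, 733 and 510 in DU145, 4, 11 and 2 in CWR22Rv1 and 181, 180 and 160 in DU145 and 1718, 1718 and 1776 in CWR22Rv1 and 8554, 8737 and 7705 in DU145 respectively. GALNT8 had 142, 163 and 197 in CWR22Rv1 and 0 reads in DU145, at least 168-fold, and GALNT3 had 407, 294 and 337 in CWR22Rv1 and 70, 82 and 108 in DU145 (log2 difference 2.00, SE 0.21, limma adjusted p=1.6e-04). Of 11 enzymes of the next steps of the chain that were tested, 2 were higher in CWR22Rv1 and 8 higher in DU145, with a median of -3.15. C1GALT1, which makes core 1, was higher in DU145 (log2 difference -3.49, SE 0.23, limma adjusted p=1.8e-05), and ST3GAL1, which caps core 1 with sialic acid, was higher in CWR22Rv1, with 9223, 10503 and 9391 in CWR22Rv1 and 194, 224 and 261 in DU145 (log2 difference 5.42, SE 0.12, limma adjusted p=2.1e-07).

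HOX genes, which record position along the body axis, were mostly higher in DU145: 25 of 31 tested, against 4 higher in CWR22Rv1, with a median of -2.08. A mean under 10 reads was found for 9 members in CWR22Rv1 and 3 in DU145. These could pass the filter only through the other line. The 19 read in both lines gave 16 higher in DU145 and 1 higher in CWR22Rv1, with a median of -1.64. HOXB9 had 30, 27 and 32 in CWR22Rv1 and 858, 823 and 824 in DU145 (log2 difference -4.76, SE 0.11, limma adjusted p=2.8e-07) and HOXA10 5, 8 and 9 in CWR22Rv1 and 334, 315 and 340 in DU145 (log2 difference -5.34, SE 0.22, limma adjusted p=2.4e-06). In the same HOXB cluster HOXB13 ran the opposite way, as given above. HOXC12, at the 5′ end of the HOXC cluster, was higher in CWR22Rv1, with 37, 50 and 49 in CWR22Rv1 and 2, 0 and 0 in DU145, and HOXA4 and HOXB4 were too, at 2.85 and 1.94.

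Neuroendocrine genes, which mark a form of prostate cancer that can appear after hormone therapy, were split by gene: of 25 listed, 16 were tested, 9 higher in CWR22Rv1 and 6 higher in DU145. A mean under 10 reads was found for 5 members in DU145 and 4 in CWR22Rv1. These could pass the filter only through the other line. The 7 read in both lines gave 4 higher in CWR22Rv1 and 2 higher in DU145, with a median of 0.50. SYT4, a vesicle protein, had 1246, 1241 and 1274 in CWR22Rv1 and 0 reads in DU145, at least 1259-fold, and VGF, a secreted neuropeptide precursor, had 710, 672 and 731 in CWR22Rv1 and 17, 22 and 15 in DU145 (log2 difference 5.23, SE 0.16, limma adjusted p=7.1e-07). UCHL1, a neuronal ubiquitin hydrolase, went the other way with 4, 4 and 3 in CWR22Rv1 and 8462, 8566 and 8475 in DU145 (log2 difference -10.83, SE 0.12, limma adjusted p=4.2e-08), as did NKX2-1, a lung and thyroid factor, with 8, 1 and 5 in CWR22Rv1 and 2771, 2688 and 2650 in DU145 (log2 difference -9.14, SE 0.55, limma adjusted p=1.2e-05). At 4-fold, 7 of the list were higher in CWR22Rv1 and 4 higher in DU145, while the defining genes CHGA and INSM1 had at most 1 read in any library.

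**Figure D3:**
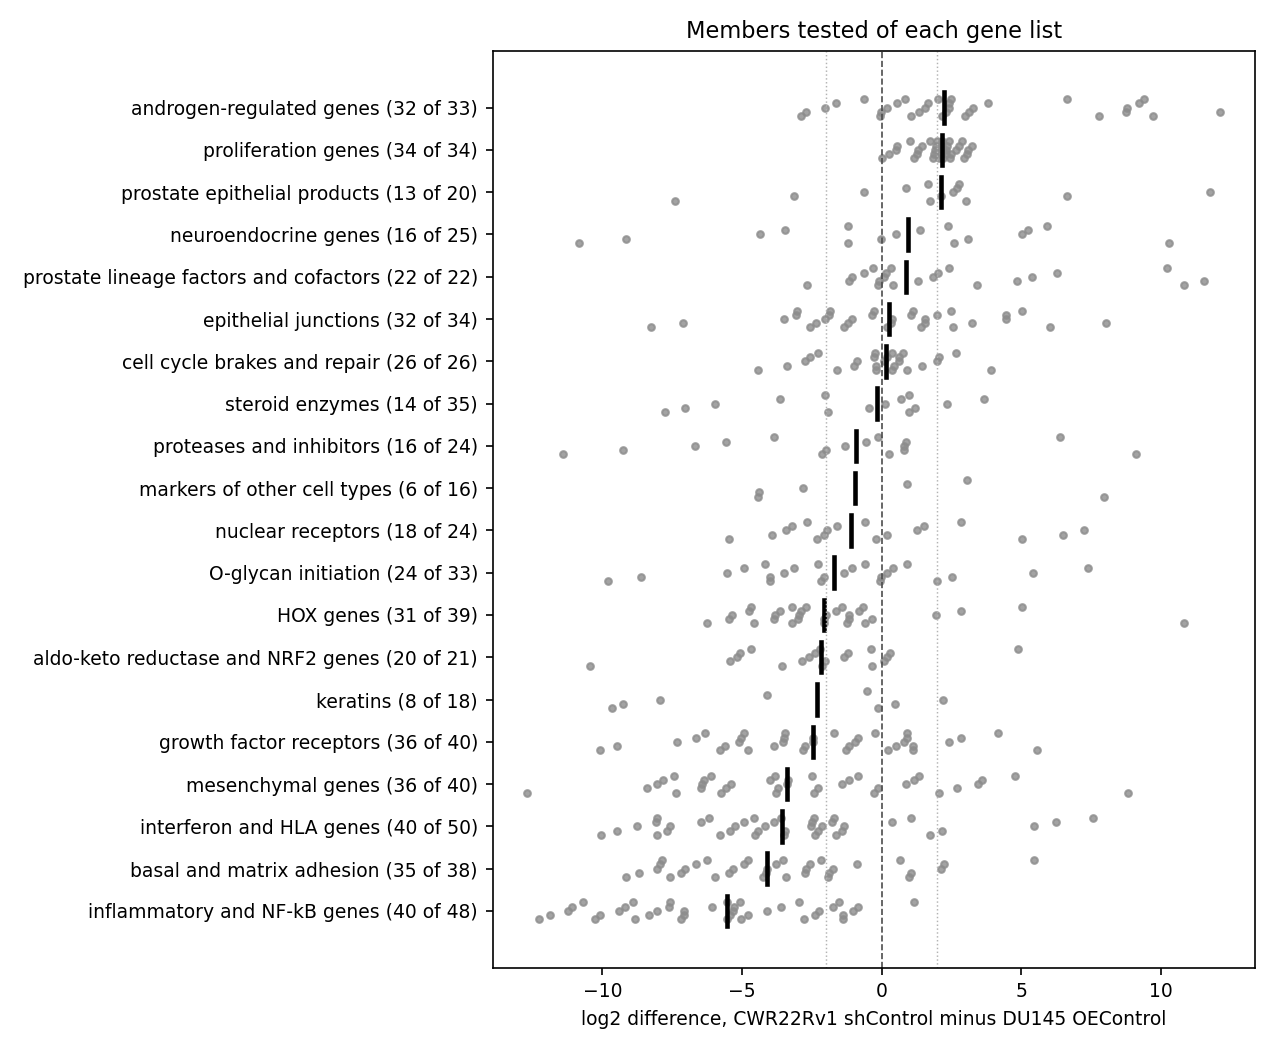
Log2 difference (CWR22Rv1 shControl minus DU145 OEControl) of every tested member (grey points) of 20 gene lists, with the list's median as a black bar, 0 as a dashed line and the 4-fold limits as dotted lines. The number tested of those listed is in brackets. Over all tested members the inflammatory list has the lowest median, -5.55, and the androgen-regulated genes the highest, 2.24. The proliferation genes follow at 2.15, and their members lie close together. Among members with a mean of at least 10 reads in both lines these ranks do not hold. There the inflammatory median is -2.86 and the androgen-regulated median 1.20. The basal and matrix genes are then lowest, at -3.94, and the proliferation genes highest, at 2.15.

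Genes of DNA replication and mitosis were higher in CWR22Rv1 almost without exception: 33 of 34, 19 at 4-fold, with a median of 2.15 and none higher in DU145. MCM7, part of the replicative helicase, had 18185, 16405 and 17493 in CWR22Rv1 and 2176, 2341 and 2209 in DU145 (log2 difference 2.95, SE 0.05, limma adjusted p=1.1e-07). CCNB1, the mitotic cyclin, had 5031, 5303 and 5374 in CWR22Rv1 and 705, 763 and 648 in DU145 (log2 difference 2.89, SE 0.07, limma adjusted p=3.2e-07), and PLK1, a mitotic kinase, 4602, 4644 and 4770 in CWR22Rv1 and 551, 540 and 559 in DU145 (log2 difference 3.08, SE 0.04, limma adjusted p=6.6e-08). HMGB2, a chromatin protein of dividing cells, had the widest gap of the list (log2 difference 3.25, SE 0.04, limma adjusted p=4.0e-08). MKI67, the antigen used to score dividing cells, had 5397, 8685 and 4689 in CWR22Rv1 and 2635, 2970 and 3489 in DU145 (log2 difference 1.00, SE 0.24, limma adjusted p=0.0082). CCNE1 overlapped and did not pass, at 0.01.

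Among cell cycle brakes and repair genes there was no common direction, with 12 of 26 higher in CWR22Rv1 and 10 in DU145. CDKN2A, which encodes the inhibitor p16, had 457, 461 and 461 in CWR22Rv1 and 3073, 3255 and 2976 in DU145 (log2 difference -2.75, SE 0.05, limma adjusted p=1.4e-07). MDM2, a ubiquitin ligase, lay opposite, with 4339, 5310 and 4540 in CWR22Rv1 and 1072, 1057 and 1315 in DU145 (log2 difference 2.04, SE 0.11, limma adjusted p=8.4e-06). MGMT, which removes alkyl groups from guanine, had 28, 27 and 15 in CWR22Rv1 and 555, 500 and 476 in DU145 (log2 difference -4.43, SE 0.25, limma adjusted p=9.7e-06). RB1 differed little, at 0.39.

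The other 6 libraries, 3 of CWR22Rv1 with GALNT7 KD and 3 of DU145 with GALNT7 OE, gave a second view of the same lines in cells with changed GALNT7. There 6281 of 17346 genes (36.2%) were higher in CWR22Rv1 and 6343 (36.6%) higher in DU145. Of the 4966 genes called at 4-fold between the controls, 4286 (86.3%) were called in the same direction, 226 were not called, 442 were not tested and 12 were called in the opposite direction. Of the 17025 genes tested in both pairs, called at any fold, 10605 were called in the same direction. For androgen-regulated genes this was 26 of 32, with a median of 2.28, and for basal and matrix genes 33 of 35, with a median of -3.77. For inflammatory genes it was 33 of the 36 tested in both pairs, with a median of -4.23. Between the controls 40 inflammatory genes had been tested, and those below the filter in the KD and OE libraries are not in that count.

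Proliferation genes did not carry over in the same way. Of the 34, 18 were called in the same direction, 5 in the opposite direction, and the median was 0.43 beside 2.15. On the rescaling of all 12 libraries, PLK1 had 4523, 4555 and 4692 in shControl, 4206, 4135 and 4533 in GALNT7 KD, 534, 524 and 539 in OEControl and 2339, 2477 and 2493 in GALNT7 OE. MKI67 had 5305, 8518 and 4612 in shControl, 4963, 9193 and 5274 in GALNT7 KD, 2556, 2883 and 3362 in OEControl and 9730, 13676 and 10324 in GALNT7 OE, so that its highest libraries were those of GALNT7 OE. TOP2A, the topoisomerase of dividing cells, had 8358, 10313 and 8496 in shControl, 8408, 8434 and 8224 in GALNT7 KD, 6531, 5958 and 5697 in OEControl and 16826, 20580 and 19729 in GALNT7 OE, and it turned from 0.55 to -1.18. AURKA, MCM3 and MCM6 were the other 3 that turned. The line difference in these genes therefore varied with the populations that were read. At PLK1, MKI67 and TOP2A the DU145 populations did not overlap each other, while those of CWR22Rv1 did.

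Some inflammatory genes showed a smaller gap in these libraries. C3 had 3, 1 and 6 in shControl, 4, 7 and 12 in GALNT7 KD, 18513, 18292 and 17887 in OEControl and 371, 393 and 481 in GALNT7 OE, a log2 difference of -5.67 in place of -12.26. LCN2, an iron-binding acute phase protein, had 2, 0 and 1 in shControl, 0, 2 and 0 in GALNT7 KD, 6764, 6606 and 6886 in OEControl and 35, 35 and 26 in GALNT7 OE. SAA2, serum amyloid A, had 0, 0 and 0 in shControl, 1, 0 and 0 in GALNT7 KD, 1133, 971 and 1077 in OEControl and 3, 3 and 2 in GALNT7 OE and was below the filter in the KD and OE libraries. SOD2 had 3340, 3412 and 3406 in shControl, 3986, 3758 and 4238 in GALNT7 KD, 40822, 40185 and 39618 in OEControl and 3366, 3383 and 3428 in GALNT7 OE and turned to 0.23, limma adjusted p=0.0082. NDRG1 was the androgen-regulated gene that turned, with 2397, 2299 and 2497 in shControl, 4870, 4649 and 5228 in GALNT7 KD, 9645, 9879 and 9399 in OEControl and 3275, 2911 and 2765 in GALNT7 OE, a log2 difference of 0.72.

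**Figure D4:**
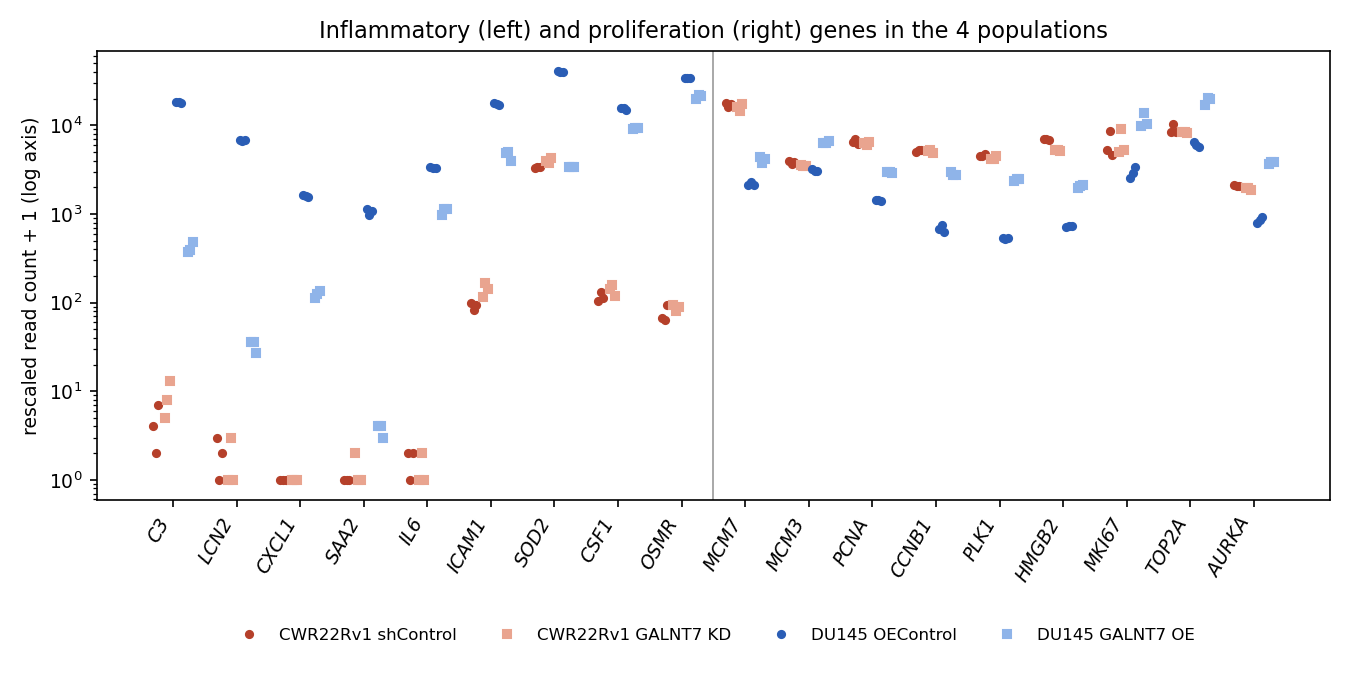
Rescaled read count + 1 (log axis, all 12 libraries rescaled together) of 9 inflammatory genes (left) and 9 proliferation genes (right), one point per library, with circles for the controls (red, CWR22Rv1 shControl; blue, DU145 OEControl) and squares for CWR22Rv1 GALNT7 KD and DU145 GALNT7 OE. DU145 GALNT7 OE lies below DU145 OEControl at each inflammatory gene shown and above it at each proliferation gene shown.

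**Figure D5:**
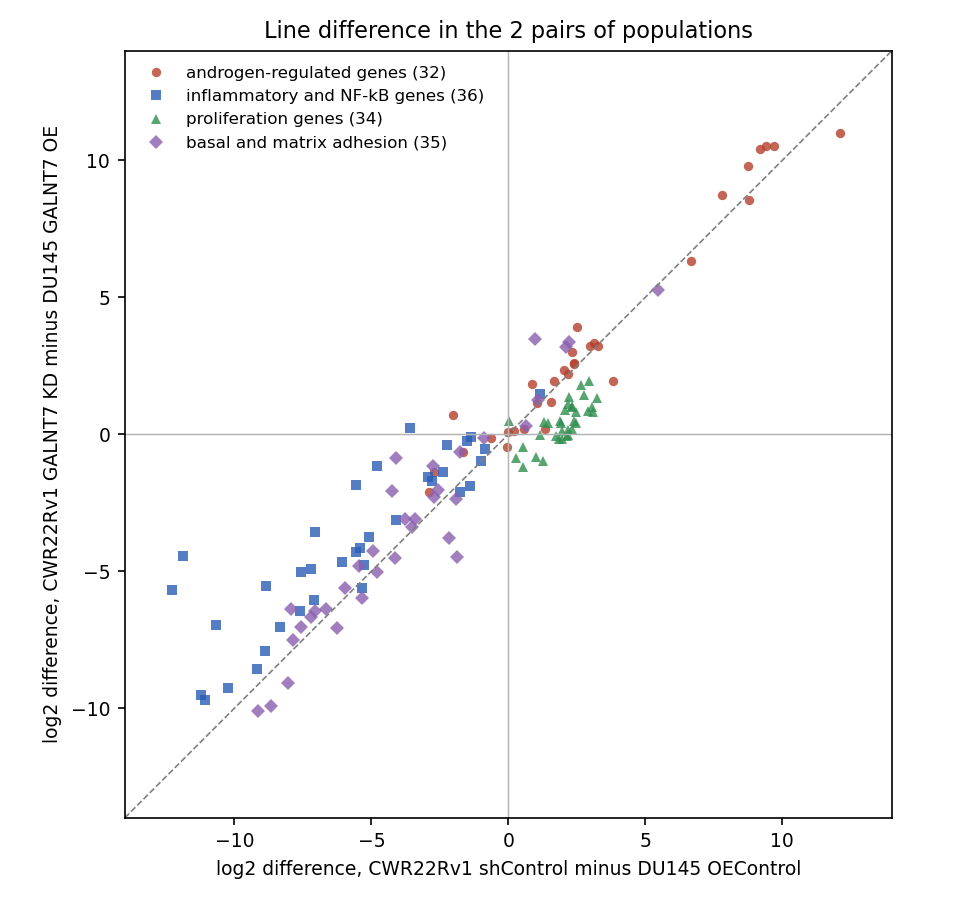
Log2 difference between the lines in the control libraries (x axis) and in the GALNT7 KD and GALNT7 OE libraries (y axis) for members of 4 lists tested in both, one point per gene, with the diagonal dashed. Androgen-regulated genes (red circles) and basal and matrix genes (purple diamonds) mostly follow the diagonal over a range of 12.12 to -9.14, inflammatory genes (blue squares) lie mostly above it, and all proliferation genes (green triangles) but CCNE1 lie below it.

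Some neighbouring genes differed together, and how many such runs the 4-fold shares alone would give was not tested. In the order of 13993 tested protein-coding genes along the chromosomes there were 58 runs of at least 4 neighbours that all passed at 4-fold in one direction, 20 higher in CWR22Rv1 and 38 higher in DU145, holding 290 genes. The kallikrein run on chromosome 19 (chr19:50797704-50910738) held C19orf48, KLK1, KLK15, KLK3, KLK2 and KLK4, with a median log2 difference of 8.88, and all 6 were called in the same direction in the KD and OE libraries. On the DU145 side stood the chemokine run on chromosome 4 (chr4:73571550-74099293), which held RASSF6, CXCL8, CXCL6, CXCL1, CXCL3 and CXCL2 at a median of -8.94, followed by EREG, AREG, BTC and PARM1 at -7.29. The keratin run on chromosome 12 held KRT80, KRT7, KRT86, KRT81 and KRT4 at -7.93. On chromosome 10, the AKR1C genes and, far from them, the IFIT genes also formed runs, at -5.97 and -6.66. Over whole autosomes the median ran from -0.42 on chromosome 14 to 0.57 on chromosome 3, and was -0.57 and 0.60 there in the KD and OE libraries. Chromosome 12 was at 0.46 between the controls and at 0.02 in the KD and OE libraries.

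Finally, some genes were read in one line and not at all in the other. With a mean of at least 50 rescaled reads in one line and 0 reads in all 3 libraries of the other, there were 193 genes of CWR22Rv1, 138 of them protein-coding, and 185 genes of DU145, 102 of them protein-coding. Of these identifiers 20 and 45 are outside the primary annotation, and 7 and 4 of the protein-coding ones lie in the major histocompatibility region, where 0 reads under 1 identifier need not mean that the gene was silent. Of genes named after their values were seen, DDX39B, a splicing helicase of that region that most cells use, was listed at 0 in DU145, and so was PHRF1, outside the region, so that a 0 here is a value of the table and not by itself an absent message. In the KD and OE libraries all 138 were higher in CWR22Rv1 and 100 of the 102 higher in DU145, and 81 and 67 of them again had 0 reads in the other line. The most reads in CWR22Rv1 were of EPHA3, an ephrin receptor, with 11596, 13005 and 11546, at least 12099-fold. ADGRL2, an adhesion receptor, had 3401, 3186 and 3009, and DOK6, a docking protein, 1817, 2051 and 2044. In DU145 the most reads after CXCL1 were of BNC1, a zinc finger factor of basal keratinocytes, with 1492, 1535 and 1444, and C9orf84 with 1110, 1133 and 1143. PPP1R3C, which directs phosphatase to glycogen, had 922, 888 and 887.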

How the data were processed

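Polyadenylated RNA of CWR22Rv1 (shControl, GALNT7 KD) and DU145 (OEControl, GALNT7 OE) cells was sequenced in 3 libraries a group, and groups were taken from the sample labels. The authors deposited normalised gene values, a signal that is the read count divided by a size factor, in 1 table per line for 59424 Ensembl identifiers. FastQC, Salmon, DESeq2, R 3.5.3 and hg38 are named in the submitters' processing notes; their roles and settings are not given in the sources used here. Because each table had been scaled on its own, each library's values were divided by its smallest value above 0, which gave whole numbers within 0.01 of a read. The 6 control libraries were joined on the identifier and rescaled together by TMM with edgeR 4.0.16 (factors 0.986 to 1.014). GENCODE 29 named 56113 identifiers (94.4%) and gave positions and exon lengths.

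Since the deposited values are a signal and not counts, limma 3.58.1 in R 4.3.3 (a linear fit per gene, then eBayes with its trend option) on log2(rescaled count + 1) was the main test, at a mean rescaled count of at least 10, a Benjamini-Hochberg adjusted p under 0.05 and, for 4-fold calls, a log2 difference of at least 2 in size. Each line had 3 libraries and replicates differed by more than sampling noise (mean chi-square per gene 9.44 to 26.0), so each was counted as its own. Count tests on the recovered reads (edgeR, DESeq2 1.42.0), other scalings, filters and pseudocounts, the replicate block and leaving out each library were alternatives. The limma fit was also run on simulated counts in which few genes were changed, unlike these lines, where most genes differed. Not all of the changed genes were called. The recovered reads of 21141983 to 23288926 per control library set the counting precision.

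The comparison and the 20 gene lists were chosen with earlier results of these data known, from textbook knowledge of each group. Genes eligible to be named were KLK3, GALNT7, all list members, the 10 protein-coding genes with the highest and the 10 with the lowest difference at a mean count of at least 200 without overlap, the 10 genes per line with the most reads among those with 0 reads in the other, the members of runs, FOXO1 and AL355075.4; some of these are not reported here. Genes with 0 reads in 1 line needed a mean of at least 50 in the other. Of the listed symbols, SLC44A4, RXRB, HSD17B8, UGT2B10, HLA-E, TAP1 and PSMB8 were not analysed here. Promoter sequences are RefSeq's for GRCh38.p14, and TMPRSS2 had no entry. Figures were drawn with matplotlib 3.10.9.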

Additional observations from a re-analysis of the deposited data

How the results depend on the processing

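The counts over all genes stayed within 1.5 times of those given under each alternative, except that limma's test against a log2 difference of 1 called 3053 genes higher in CWR22Rv1 in place of 1934. Leaving out 1 library gave 6507 to 6801 genes higher in CWR22Rv1 and 6505 to 6979 higher in DU145. The split moved most with quantile normalisation (7651 and 6384) and the deposited values without rescaling (6216 and 7622), which shifted the median of all genes by 0.154 and -0.142, while edgeR gave 6899 and 6985 and DESeq2 6702 and 7005. Deviations of same-numbered libraries correlated at 0.0157 to 0.0323, so the numbers do not pair the libraries, and the replicate block gave 6775 and 6887. With at most 1 read allowed in place of 0, 294 genes in place of 185 were read in DU145 alone. Outside the KD and OE libraries, 183 of 191 named genes besides GALNT7 kept their direction and side of the threshold in all 20 alternatives. The others were CREBBP, EP300, EPCAM, FOXO1, KEAP1, KRT8, MARVELD2 and VDR. GALNT7 ran from 0.12 to 0.29 with 1 library left out. The median of steroid enzymes (-0.16) turned to 0.12 with a mean count of at least 1 and 0.17 with quantile normalisation, and that of other cell type markers (-0.95) to 1.17 without OEControl replicate 2, with -1.11 as its lowest value with 1 library left out. In the KD and OE libraries the inflammatory list gave 2 members higher in CWR22Rv1, and the proliferation list 19 higher in CWR22Rv1 and 5 higher in DU145. There the medians of proteases (0.27) and other cell type markers (0.30), over the members that passed the filter in those libraries, had the other sign, but over the members tested in both pairs they did not turn (-0.50 and -0.64). Single genes that turned were GALNT7 (-2.08), which was itself changed in those cells, and AL355075.4 (10.28), FOXO1 (3.33), NDRG1 (0.72), SOD2 (0.23), TOP2A (-1.18), EPCAM (-0.99), AURKA (-0.98), MCM3 (-0.88), SLC7A11 (-0.88), MKI67 (-0.84), PGD (-0.76) and MCM6 (-0.48). The cause was not tested.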

Other observations

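Further groups of neighbouring genes differed between the control lines. Several cancer-testis genes, which are normally read in the germ line, were read in 1 line alone. MAGEA4 had 5430, 5481 and 5668 reads in CWR22Rv1 and 0 in DU145, at least 5549-fold, and MAGEA1 had 2861, 3031 and 2913 in CWR22Rv1 and 0 in DU145, at least 2947-fold. A run of 11 neighbours on chromosome X that held MAGEA3, MAGEA2 and MAGEA6 had a median log2 difference of 9.48, and 10 of them were called in the same direction in the KD and OE libraries. CT83, named after its values were seen, lay on the other side, with 403, 461 and 453 in DU145 and 0 reads in CWR22Rv1. SSX2B had 3387, 2913 and 3354 in CWR22Rv1 and 0 reads in DU145. Members of these families are near-identical and can share reads, so their separate levels are uncertain. Another 11 neighbours on chromosome 19, zinc finger genes from ZNF43 to ZNF724, had a median of 5.24, and all 11 were called in the same direction in the KD and OE libraries.

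Runs of histone genes were higher in DU145. The longest run of all, 18 neighbours on chromosome 6 (chr6:25962802-26453415) from TRIM38 to BTN3A3 that held 11 histone genes, had a median log2 difference of -5.14, and 15 of the 18 were called in the same direction in the KD and OE libraries. HIST1H1C, a linker histone, had 60, 61 and 47 in CWR22Rv1 and 4740, 4599 and 4529 in DU145 (log2 difference -6.35, SE 0.11, limma adjusted p=1.2e-07), and HIST1H2BK 54, 53 and 55 in CWR22Rv1 and 1951, 1910 and 1881 in DU145 (log2 difference -5.12, SE 0.07, limma adjusted p=7.9e-08). On chromosome 1, HIST2H2BE had 106, 99 and 84 in CWR22Rv1 and 2970, 3013 and 2913 in DU145 (log2 difference -4.94, SE 0.10, limma adjusted p=1.7e-07). Most histone messages lack a poly(A) tail, so with poly(A) selection these counts need not reflect the genes' total message. How far untailed messages entered the libraries was not tested.

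FOXO1 and AL355075.4 differed in one direction between the controls and in the other between the KD and OE libraries. On the rescaling of all 12 libraries FOXO1 had 247, 281 and 254 in shControl, 1820, 2006 and 1315 in GALNT7 KD, 362, 2079 and 2461 in OEControl and 160, 180 and 160 in GALNT7 OE, and OEControl replicate 1 lay far below the other two. Its log2 difference was -2.26 (limma adjusted p=0.026) between the controls and 3.33 in the KD and OE libraries. The call between the controls was lost, at -2.31 to -1.76, without any single library other than OEControl replicate 1. AL355075.4 had 13, 17 and 22 in shControl, 18099, 15492 and 20220 in GALNT7 KD, 32332, 31926 and 32235 in OEControl and 18, 16 and 8 in GALNT7 OE, with log2 differences of -10.82 and 10.28. It overlaps RPPH1 and PARP2, so its reads need not be its own.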
